A study of Mus musculus with 4 samples.

Results

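CD4 T cells of bone marrow were selected from single-cell RNA libraries by their transcripts, and 137 of 49567 kept barcodes were members. A barcode was kept with at least 200 detected genes and at most 10% of its unique molecular identifiers (UMIs, counted RNA molecules) from mitochondrial genes. A kept barcode was a member with at least 2 UMIs of Cd3d, Cd3e and Cd3g together, at least 1 UMI of Cd4, 0 UMIs of Cd8a and Cd8b1 and at most 1 UMI of Cd79a. It also needed fewer than 50 hemoglobin UMIs of Hba-a1 and Hbb-bs and less than 2% of its UMIs from S100a8 and S100a9. These barcodes are called the CD4 gate here, and the genes that chose them are described without a test.

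The samples were flow-sorted nucleated bone marrow cells of 10-week-old YAP1 heterozygote mice (2 libraries) and WT mice (2 libraries), profiled with droplet 3' single-cell RNA sequencing. The strain, the form of the Yap1 allele and the sort gates are not given in the sources used here, and the labels do not state whether the 2 libraries of a genotype came from separate animals. In both genotypes replicate 1 expressed the Y chromosome gene Ddx3y and replicate 2 Xist. The 2 libraries of a genotype thus differed in sex and did not come from 1 shared animal. The p-values between genotypes measure only the spread between these libraries, which includes that difference of sex. The study was designed to compare the cell shares and gene expression of marrow between the genotypes.

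CD4 T cells recognise peptides on major histocompatibility complex (MHC) class II through the T cell receptor and the Cd4 co-receptor. Naive cells express Ccr7 and Lef1, which belong to lymph node homing and to a resting program. Regulatory T cells depend on the transcription factor Foxp3 and restrain other lymphocytes, and bone marrow is known to hold many of them. Effector and memory cells carry chemokine receptors, adhesion molecules and cytokine genes, and marrow is a known reservoir of memory T cells. Yap1, a transcriptional coactivator of the Hippo pathway, is named in the series together with Myh9, a nonmuscle myosin heavy chain.

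The gate held 30 and 37 barcodes in the YAP1 heterozygote libraries and 27 and 43 in the WT libraries. Libraries held 112806900 and 119855112 UMIs for YAP1 heterozygote marrow and 114943163 and 115773607 for WT marrow, of which the CD4 gate supplied 156457 and 208459 in YAP1 heterozygote libraries and 103428 and 223700 in WT libraries. The median CD4 gate barcode had 4022 and 3875 UMIs in YAP1 heterozygote libraries and 3169 and 3919 in WT libraries. No CD4 gate barcode sequence was shared with a kept barcode of another library, although pairs of libraries shared 22 to 60 kept barcodes.

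The label was checked against its markers. Of the 137 barcodes, a T cell receptor constant gene (Trac, Trbc1 or Trbc2) was detected in 30 of 30, 37 of 37, 26 of 27 and 43 of 43, in the order YAP1 heterozygote 1 and 2, then WT 1 and 2. Cd3d was detected in 27, 37, 21 and 41 barcodes and Cd3e in 27, 28, 23 and 35. A single Cd4 UMI admitted 19 and 23 barcodes in YAP1 heterozygote libraries and 16 and 27 in WT libraries. For comparison, a Cd4 UMI was found in 0.267% of 9749 B cell barcodes and 0.252% of 21011 neutrophil barcodes. Their median depths ran from 2665 to 3202 and from 6068 to 7155 UMIs. Both sets were chosen with 0 CD3 UMIs, which leaves out barcodes with captured CD3 RNA. These shares can therefore understate the background of a single Cd4 molecule, and its source was not tested. At the edge of the rule, in the same library order, 2, 3, 4 and 3 members had exactly 2 CD3 UMIs, and 1, 3, 4 and 3 barcodes that met every other limit had 1 and stayed outside.

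Some members also carried transcripts of another lineage. In all, 14 barcodes, 2 and 5 in YAP1 heterozygote libraries and 3 and 4 in WT libraries, had at least 5 Siglech UMIs, at least 10 Lyz2 UMIs or at least 30 Cd74 UMIs. Siglech marks plasmacytoid dendritic cells, which can express Cd4, Lyz2 encodes the lysozyme of monocytes and neutrophils, and Cd74 encodes the invariant chain of MHC class II. These 14 barcodes had a median of 11590 UMIs, against 3717 in the other 123, and held 25.2% and 28.7% of the gate's UMIs in YAP1 heterozygote libraries and 28.9% and 21.7% in WT libraries. Trac was detected in 12 of the 14 and Cd3d in 14. A doublet caller, Scrublet, marked 1 and 3 members in YAP1 heterozygote libraries and 0 and 1 in WT libraries. Limits for these barcodes were set after the data had been seen, and results that rest on them are given with and without them. Whether they are doublets was not tested.

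The CD4 gate was a small and similar share of marrow in both genotypes. It made up 0.273% and 0.268% of kept barcodes in YAP1 heterozygote libraries (95% Wilson intervals 0.191 to 0.390% and 0.194 to 0.369%) and 0.208% and 0.366% in WT libraries (0.143 to 0.302% and 0.272 to 0.492%). All intervals and floors given here cover counting error only. The YAP1 heterozygote values lay between the WT values, with means of 0.270 ± 0.00389% and 0.287 ± 0.111% (SD, n = 2 each). The difference of -0.0163 percentage points had a two-sided exact permutation p of 1, where 2 libraries against 2 allow no p below 0.3333. For each 100 CD8 gate barcodes, selected in the same way with Cd8a or Cd8b1 in place of Cd4, there were 22.6 and 14.3 CD4 gate barcodes in YAP1 heterozygote libraries and 16.2 and 19.4 in WT libraries. The CD8 gate held 780 barcodes. A further 123 and 195 barcodes with CD3 UMIs in YAP1 heterozygote libraries, and 177 and 212 in WT libraries, had neither a Cd4 nor a Cd8a or Cd8b1 UMI, and T cells whose Cd4 was not captured would be among them, so these ratios are of barcodes with a captured coreceptor.

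Each member was placed in a state from a few genes. A regulatory state cell had at least 1 Foxp3 UMI. Among the others, a naive state cell had at least 2 UMIs of a set of naive genes that includes Ccr7 and Lef1 and at most 1 UMI of S100a4, Cxcr3, Cxcr6 and Ccl5 together, and an effector state cell had the reverse. Over all libraries, 45 barcodes were naive, 24 regulatory and 35 effector, while 14 met both limits and 19 neither. Near the limits, 7 of the 24 regulatory state barcodes had a single Foxp3 UMI, and 8 naive state barcodes had exactly 2 UMIs of the naive genes. Foxp3 was found in 0 of 9749 B cell barcodes and in 0.0238% of 21011 neutrophil barcodes, both chosen without CD3 UMIs.

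Regulatory state cells took a lower share, and naive state cells a higher share, of the CD4 gate in both YAP1 heterozygote libraries than in either WT library. The regulatory state held 3 and 3 barcodes in YAP1 heterozygote libraries, 10.0% and 8.11% of the gate, and 10 and 8 in WT libraries, 37.0% and 18.6%. The groups did not overlap, and the difference of the means was -18.8 percentage points (9.05 ± 1.34% and 27.8 ± 13.0%, SD, n = 2 each, two-sided exact permutation p = 0.3333, the smallest this design can give). Foxp3 itself, a gene of chrX:7573644-7595245 that the rule of this state used, summed to 7 and 5 UMIs in YAP1 heterozygote libraries and 23 and 22 in WT libraries.

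The naive state held 13 and 15 barcodes in YAP1 heterozygote libraries, 43.3% and 40.5%, and 4 and 13 in WT libraries, 14.8% and 30.2%. The groups did not overlap here either, with a difference of +19.4 percentage points (41.9 ± 1.97% and 22.5 ± 10.9%, SD, n = 2 each, two-sided exact permutation p = 0.3333). The effector state held 5 and 12 barcodes in YAP1 heterozygote libraries, 16.7% and 32.4%, and 7 and 11 in WT libraries, 25.9% and 25.6%. The 2 YAP1 heterozygote values lay on both sides of the WT values, and the exact permutation p was 1. None of the 3 differences could be called in this design. In the plot of state shares, the Wilson intervals of YAP1 heterozygote and WT libraries overlapped for every pair except the regulatory shares of YAP1 heterozygote library 2 (2.80 to 21.3%) and WT library 1 (21.5 to 55.8%).

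**Figure D1:**
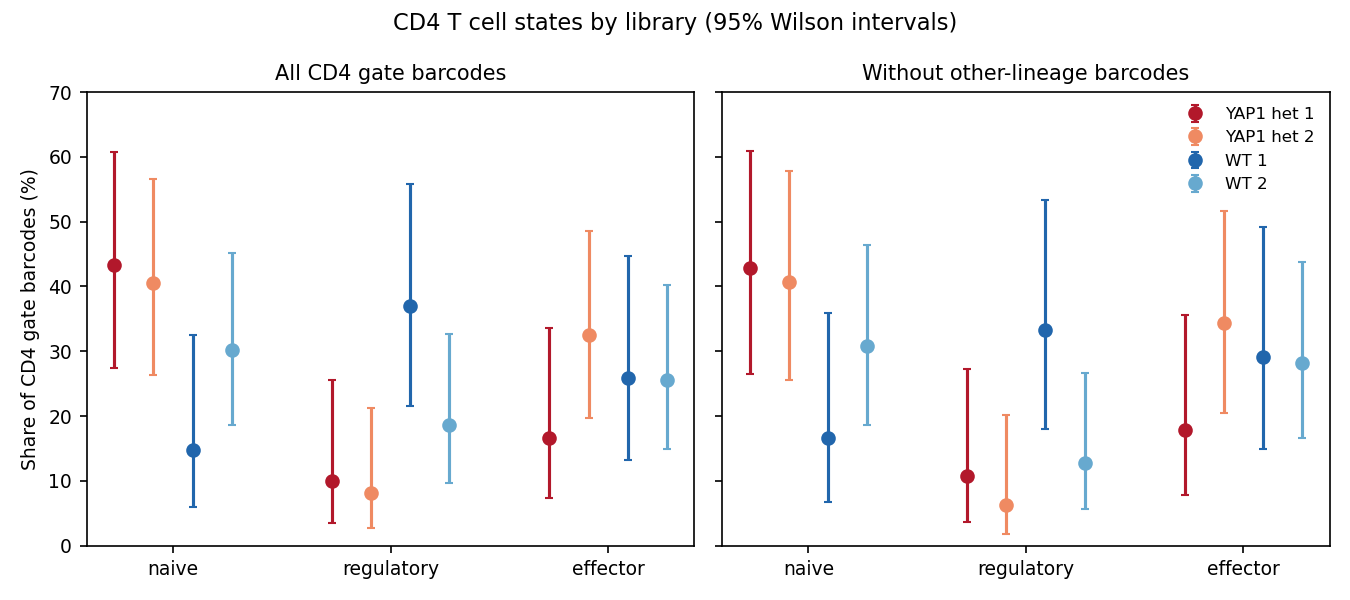
Share of CD4 gate barcodes (percent, y axis) in the naive, regulatory and effector states, 1 point per library with its 95% Wilson interval, for all members (left) and without the 14 other-lineage barcodes (right). Regulatory shares of the YAP1 heterozygote libraries (10.0% and 8.11%) lie below those of the WT libraries (37.0% and 18.6%), naive shares (43.3% and 40.5%) lie above (14.8% and 30.2%), and most intervals overlap.

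Depth and the other-lineage barcodes bear on these shares. With each barcode thinned once to 1500 UMIs, the regulatory state held 2 of 30 and 2 of 36 barcodes in YAP1 heterozygote libraries, 6.67% and 5.56%. In WT libraries it held 8 of 27 and 3 of 43, 29.6% and 6.98%, so WT library 2 lay close to the YAP1 heterozygote libraries. The naive difference was then +8.85 percentage points. Without the 14 other-lineage barcodes, the regulatory state held 3 of 28 and 2 of 32 barcodes in YAP1 heterozygote libraries, 10.7% and 6.25%, and 8 of 24 and 5 of 39 in WT libraries, 33.3% and 12.8%. Both YAP1 heterozygote regulatory shares stayed below both WT shares, by a narrow margin from WT library 2 after thinning. WT library 1 carried the largest share each time. Without WT library 1 the regulatory difference was -9.55 percentage points and the naive difference +11.7. A cell that belongs to a state and whose Foxp3 molecules were not captured is counted elsewhere, so fewer such cells and less RNA per cell cannot be told apart.

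Genes that were not used to define the states followed them. Ikzf2, which encodes Helios, a partner of Foxp3 in regulatory cells, was detected in 3 of 3, 3 of 3, 8 of 10 and 8 of 8 regulatory state barcodes. Tcf7, a transcription factor of naive and stem-like T cells, summed to 31 and 36 UMIs in the naive state of YAP1 heterozygote libraries and 9 and 32 in that of WT libraries, against 0 and 1 in the regulatory state of YAP1 heterozygote libraries and 4 and 2 in that of WT libraries. Dapl1 was found mostly in the naive state, which held 27 and 16 of the gate's 27 and 22 UMIs in YAP1 heterozygote libraries and 3 and 4 of its 3 and 6 in WT libraries. S1pr1, the receptor that guides lymphocytes out of tissues, summed to 22 and 24 UMIs in naive state cells of YAP1 heterozygote libraries and 4 and 17 in those of WT libraries, and to 2 and 6 in effector state cells of YAP1 heterozygote libraries and 2 and 7 in those of WT libraries.

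Effector state cells carried transcripts of the type 1 and cytotoxic programs. Cxcr3 and Ccl5, which help define this state, belong to the T helper 1 and CD8 T cell lists. This content therefore follows in part from the rule and is given as a description. Nkg7, a cytotoxic granule gene, summed to 17 and 38 UMIs in effector state cells of YAP1 heterozygote libraries and 10 and 37 in those of WT libraries, with 0 and 0 UMIs in naive state cells of YAP1 heterozygote libraries and 0 and 1 in those of WT libraries. Ifng, the type 1 cytokine, gave 10 and 4 UMIs in the effector state of YAP1 heterozygote libraries and 4 and 16 in that of WT libraries, and 0 and 0 in the naive state of YAP1 heterozygote libraries and 0 and 4 in that of WT libraries. The type 1 regulator Tbx21 gave 1 and 8 UMIs in the effector state of YAP1 heterozygote libraries and 0 and 4 in that of WT libraries. Genes of the other helper lists were detected in the whole gate as well. The T helper 2 list stood at 518 and 331 CPM in YAP1 heterozygote libraries and 783 and 805 CPM in WT libraries, and the T helper 17 list at 326 and 221 CPM in YAP1 heterozygote libraries and 387 and 282 CPM in WT libraries, where the T helper 1 list stood at 1866 and 528 CPM in YAP1 heterozygote libraries and 580 and 2387 CPM in WT libraries. Maf and Gata3 were among the most highly expressed T helper 2 genes tested. Other single genes of these programs, picked after values were seen, had few UMIs. Il17a of the type 17 program had 0 UMIs in all 4 libraries. Il4 of the type 2 program had 0 and 1 UMI in YAP1 heterozygote libraries and 0 and 4 in WT libraries, and Bcl6 of follicular helper cells had 0 and 0 in YAP1 heterozygote libraries and 6 and 4 in WT libraries. The receptor of interleukin 33, Il1rl1, gave 7 and 4 UMIs in YAP1 heterozygote libraries and 1 and 6 in WT libraries. Of these, 7 and 1 UMIs in YAP1 heterozygote libraries and 1 and 5 in WT libraries lay in regulatory state cells.

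**Figure D2:**
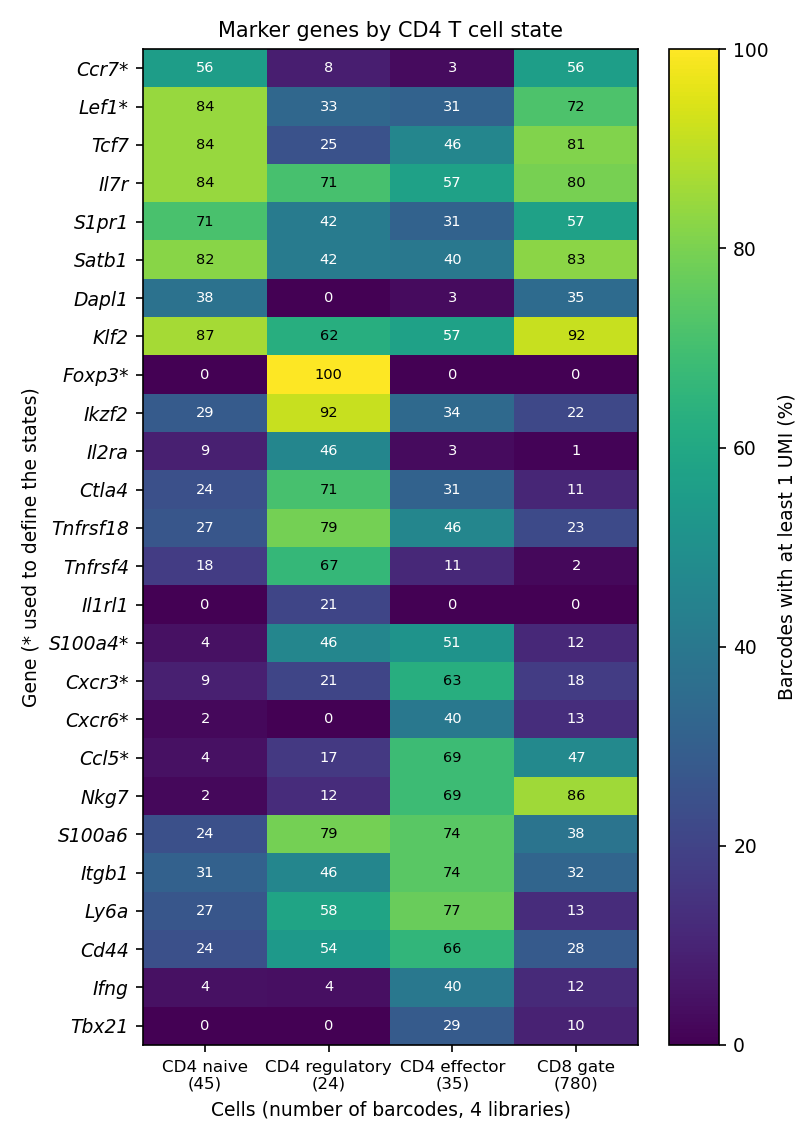
Percentage of barcodes with at least 1 UMI of each gene (rows) in naive, regulatory and effector state CD4 cells and in the CD8 gate (columns, number of barcodes in brackets), over all 4 libraries. Asterisks mark genes that define the states. Shares are not thinned to 1 depth, and the CD8 gate was deeper (median 4680 to 5302 UMIs by library) than the CD4 gate (3169 to 4022).

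Counts summed by library and state were compared between regulatory state cells and all other CD4 gate cells, paired within library (edgeR quasi-likelihood test, Benjamini-Hochberg adjustment over 984 genes). In regulatory state cells 4 genes were higher (0.407% of those tested), Foxp3 among them, and 5 were lower (0.508%), with 120 genes (12.2%) at an unadjusted p under 0.05. Beside Foxp3 the higher genes were Ikzf2, Tnfrsf18 and Zfp36l1, and the lower ones were Tcf7, Txk, Lyst, Ccl5 and Lef1. A YAP1 heterozygote sum held only 3 cells. Without YAP1 heterozygote library 2 Foxp3 alone was called, and without YAP1 heterozygote library 1 there were 14 calls. Values below follow the order YAP1 heterozygote 1 and 2, then WT 1 and 2.

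Ikzf2 (chr1:69531214-69687245, minus strand, GRCm38) was at 2018, 996, 926 and 945 CPM (UMIs in 1000000 of the sum) in regulatory state cells of YAP1 heterozygote libraries 1 and 2 and WT libraries 1 and 2, against 199, 228, 545 and 275 CPM in the other CD4 cells. It was higher in 4 of 4 libraries, and 20.8% of all genes tested had 1 direction in all 4. It was called (log2 1.97, SE 0.37, edgeR adjusted p = 0.0301). Tnfrsf18 (chr4:156026164-156028895, plus strand), which encodes the costimulatory receptor GITR, was at 1153, 199, 365 and 381 CPM in regulatory state cells against 130, 90.2, 192 and 72.0 CPM in the others, again higher in 4 of 4 (log2 1.99, SE 0.40, adjusted p = 0.0416). Zfp36l1, an RNA-binding protein that promotes mRNA decay, stood at 1922, 448, 1705 and 960 CPM in regulatory state cells against 315, 250, 641 and 347 CPM in the others (log2 1.60, SE 0.31, adjusted p = 0.0301). All 3 were called also without the other-lineage barcodes, with log2 fold changes of 2.45, 2.44 and 1.53. Ctla4, an inhibitory receptor of regulatory cells, was higher in 4 of 4 libraries and was not called (log2 1.08, adjusted p = 0.365).

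The 5 lower genes were lower in 4 of 4 libraries. Tcf7 had 0, 1, 4 and 2 UMIs in regulatory state cells against 52, 47, 32 and 58 in the others (log2 -2.93, SE 0.47, edgeR adjusted p = 0.0167). Txk, a kinase of the Tec family that acts in T cell receptor signalling, had 0, 0, 1 and 3 UMIs in regulatory state cells against 35, 35, 18 and 56 in the others (log2 -3.39, adjusted p = 0.0167). Lyst, a gene of lysosome trafficking, had 0, 1, 1 and 0 UMIs in regulatory state cells against 32, 32, 22 and 53 in the others (log2 -4.23, adjusted p = 0.0199). For all 3 genes a few molecules at most were seen in the regulatory state of any library. The sums differed much in size. A count of 0 allows up to 288, 149, 73.1 and 42.3 CPM in the regulatory sums. In the other sums it allows up to 20.5, 15.9, 48.1 and 19.6 CPM. Low counts in the smallest sums therefore place only a loose limit on the level. The chemokine gene Ccl5 was at 288, 0, 24.4 and 240 CPM in regulatory state cells against 760, 987, 978 and 1132 CPM in the others (log2 -3.01, adjusted p = 0.0301). Lef1 was at 96.1, 49.8, 48.7 and 70.6 CPM in regulatory state cells against 253, 318, 321 and 308 CPM in the others (log2 -2.21, adjusted p = 0.0301). In YAP1 heterozygote library 2 and WT library 1 the regulatory values of both genes lay below the limits above. That of Lef1 did so in YAP1 heterozygote library 1 as well. Naive, effector and mixed cells together make up the other group, and the values of Ccl5 and Lef1 follow the genes that define those states.

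**Figure D3:**
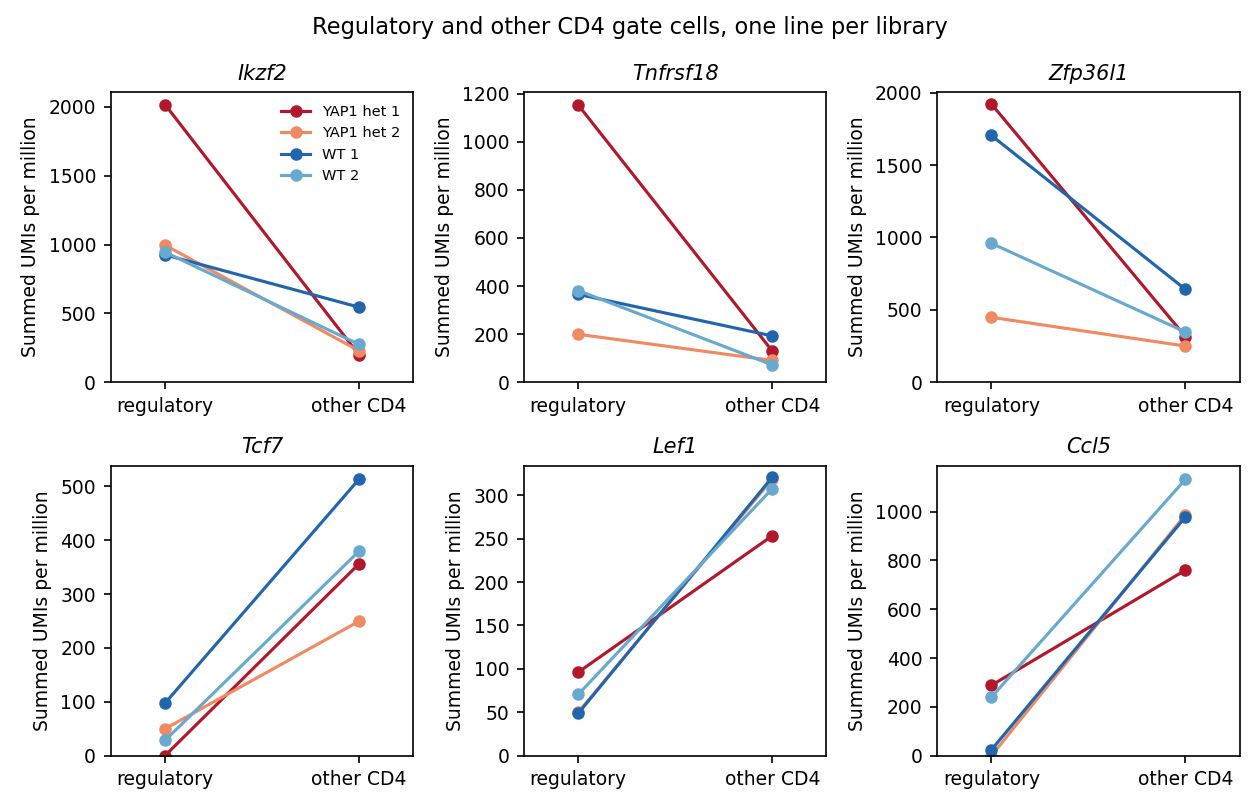
CPM of 6 genes (y axis) in regulatory state cells (left) and other CD4 gate cells (right), summed by library, with 1 line per library. Ikzf2, Tnfrsf18 and Zfp36l1 are higher in regulatory state cells in all 4 libraries, and Tcf7, Lef1 and Ccl5 are lower in all 4. The regulatory sums of the YAP1 heterozygote libraries hold 3 cells each.

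Without the other-lineage barcodes, 604 genes could be tested, of which 10 were higher (1.66%) and 6 lower (0.993%). Both fits called the 4 higher genes and 2 of the 5 lower ones, Tcf7 and Ccl5. The genes called higher then included Hif1a (log2 1.83), a transcription factor of low oxygen, the kinase gene Pim1 (1.49), the interferon-induced Ifi27l2a (1.31) and the NF-kB inhibitor Nfkbia (1.25). The genes called lower included Satb1 (log2 -2.53), a chromatin organiser of T cells, Nkg7 (-3.28) and Jun (-2.05). Over the gene lists, 6 of 20 regulatory program genes passed the filter on low counts with all barcodes, all 6 with positive fold changes, 3 of them called (Foxp3, which chose the cells, among these), and a median log2 fold change of 1.70, against 0.03 over all genes tested. Of 11 naive and quiescence genes tested, 10 had negative fold changes, 3 were called lower and the median was -0.52. All 5 NF-kB genes tested had positive fold changes with a median of 0.82, and none was called with all barcodes.

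Against CD8 gate cells of the same libraries, CD4 gate cells had a higher level of 318 genes (5.32% of 5977 tested) and a lower level of 271 (4.53%), in a test paired by library. Without the other-lineage barcodes of both gates, 180 (3.22% of 5594) were higher and 201 (3.59%) lower, and 158 and 191 of these were called both ways. With all barcodes DESeq2 called 370 genes in both directions together. The higher genes included CD4 lineage regulators, costimulatory receptors and the regulatory program, and the lower ones included cytotoxic and naive genes. With all barcodes 6 of 7 tested plasmacytoid dendritic genes and 5 of 5 monocyte and macrophage genes were called higher, and 0 of 3 and 0 of 5 without the other-lineage barcodes. Those barcodes were chosen by Siglech, Lyz2 and Cd74, markers of such cells, so this drop is set in part by the choice and is no test. Mef2c, Tcf4, Rnase6 and H2-Ab1, which were among the largest differences with all barcodes, were then below the filter for low counts, and the chemokine receptor Ccr2 was not called (log2 1.77 with all barcodes, 0.84 and adjusted p = 0.174 without).

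Zbtb7b (chr3:89377644-89394776, minus strand) encodes ThPOK, the transcription factor that commits thymocytes to the CD4 lineage. It was at 70.3, 67.2, 58.0 and 40.2 CPM in CD4 gate cells of YAP1 heterozygote libraries 1 and 2 and WT libraries 1 and 2, against 4.69, 1.43, 4.38 and 5.37 CPM in CD8 gate cells (log2 3.64, SE 0.42, edgeR adjusted p = 1.13e-06, and 4.60 without the other-lineage barcodes). Runx3, which opposes it in CD8 T cells, was at 44.7, 86.4, 77.4 and 112 CPM in CD4 gate cells against 210, 175, 222 and 205 CPM in CD8 gate cells (log2 -1.49, SE 0.21, adjusted p = 1.2e-05, and -1.43 without). Zbtb7b was higher and Runx3 lower in CD4 gate cells in 4 of 4 libraries, as 22.1% and 7.68% of all genes tested were. Neither gene overlapped between the gates, as held for 738 higher and 234 lower genes of 5977 tested.

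Costimulatory genes of helper T cells had some of the largest positive fold changes. Values follow the same library order. Tnfrsf4 (chr4:156013843-156016612, plus strand), which encodes OX40, was at 89.5, 110, 164 and 157 CPM in CD4 gate cells against 2.34, 3.57, 4.38 and 5.37 CPM in CD8 gate cells (log2 4.75, SE 0.33, edgeR adjusted p = 3.54e-10). Cd40lg, the ligand with which helper cells activate B cells, was at 19.2, 28.8, 58.0 and 44.7 CPM in CD4 gate cells against 1.17, 2.14, 1.10 and 0.766 CPM in CD8 gate cells (log2 4.40, SE 0.51, adjusted p = 1.27e-06). The transcription factor gene Maf was at 243, 101, 416 and 367 CPM in CD4 gate cells against 22.3, 6.43, 8.76 and 16.9 CPM in CD8 gate cells (log2 4.09, SE 0.25). The lowest CD4 value exceeded the highest CD8 value for each of these, as it did for 738 of 5977 genes tested. Izumo1r, the folate receptor FR4 of regulatory and anergic cells, and Tbc1d4, a Rab regulator, had log2 fold changes of 3.02 and 3.84.

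All 10 regulatory program genes that passed the filter, of 20 listed, were called higher in CD4 gate cells, with a median log2 fold change of 3.15 against -0.02 over all genes tested. A gene could pass that filter through the CD4 gate alone, so this count describes the genes that passed and not all 20. Il2ra, the interleukin 2 receptor alpha chain, was at 32.0, 24.0, 106 and 35.8 CPM in CD4 gate cells against 2.34, 4.29, 1.10 and 1.53 CPM in CD8 gate cells (log2 3.84, SE 0.51, edgeR adjusted p = 5.8e-06). Ctla4 was at 198, 76.8, 425 and 237 CPM in CD4 gate cells against 29.3, 20.0, 35.0 and 36.0 CPM in CD8 gate cells (log2 2.60, SE 0.22). WT library 1, with the largest share of regulatory state cells, had the highest CD4 value of both genes. Of 14 CD4 lineage genes tested, 10 were called higher and 1 lower, with a median of 1.48, among them Icos (log2 1.65), Cd5 (1.30) and Gata3 (1.68). The shares called over all genes tested were 5.32% higher and 4.53% lower.

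Effector and memory genes split. Of 25 tested, 13 were called higher and 3 lower in CD4 gate cells, where 5.32% and 4.53% of all genes tested were. The median was 0.69. Ly6a (chr15:74994877-74998031, minus strand), which encodes Sca-1, was at 281, 441, 348 and 353 CPM in CD4 gate cells against 70.3, 38.6, 60.2 and 39.1 CPM in CD8 gate cells (log2 2.63, SE 0.21, edgeR adjusted p = 2.75e-09). S100a4 and the integrin gene Itgb1 were also higher, with log2 fold changes of 1.98 and 1.46, and S100a4 helps define the effector state. Eomes, a transcription factor of memory and cytotoxic CD8 cells, was at 6.39, 0, 0 and 8.94 CPM in CD4 gate cells against 94.9, 63.6, 71.2 and 69.7 CPM in CD8 gate cells (log2 -4.24, SE 0.48, adjusted p = 9.17e-07). Gzmm, which encodes granzyme M, had 0 UMIs in the CD4 gate and 144 in the CD8 gate, where it was at 35.2, 38.6, 24.1 and 29.1 CPM. Set against the 3 UMIs that a count of 0 allows over the summed CD4 gate, it was at least 7.43-fold lower in CD4 gate cells.

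Ccl5 was at 729, 892, 600 and 849 CPM in CD4 gate cells against 2983, 3210, 2273 and 3470 CPM in CD8 gate cells (log2 -2.17, SE 0.11, edgeR adjusted p = 2.87e-13). Nkg7 (chr7:43437073-43438249, plus strand) was at 230, 293, 106 and 241 CPM in CD4 gate cells against 804, 743, 676 and 813 CPM in CD8 gate cells (log2 -1.98). Naive genes were lower as well: of 18 tested, 10 were called lower and none higher, with a median of -0.53, and 7 were called lower and 1 higher without the other-lineage barcodes. Among all genes tested, 4.53% were called lower and 5.32% higher with all barcodes. Ccr7, the chemokine receptor for lymph node entry, was at 70.3, 72.0, 67.7 and 89.4 CPM in CD4 gate cells against 181, 190, 378 and 291 CPM in CD8 gate cells (log2 -1.91, SE 0.20). Tcf7 and Lef1 differed less (log2 -0.54 and -0.65), and neither was called without the other-lineage barcodes (adjusted p = 0.339 and 0.168). Trac was not called with all barcodes (log2 0.25, adjusted p = 0.274), and was called higher without the other-lineage ones (0.51, adjusted p = 0.0143).

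Other lists moved less evenly between the gates. Of 24 antigen receptor induced and immediate early genes tested, 12 were called higher and 4 lower in CD4 gate cells, with a median log2 fold change of 0.53. Without the other-lineage barcodes, 9 of 23 were called higher and 3 lower, with a median of 0.27. Over all genes tested, 5.32% were called higher and 4.53% lower with all barcodes, and 3.22% and 3.59% without those barcodes. Rgs1, a brake on chemokine receptor signalling, was at 684, 278, 812 and 840 CPM in CD4 gate cells against 177, 105, 324 and 301 CPM in CD8 gate cells (log2 1.32, SE 0.13, edgeR adjusted p = 1.23e-07). Egr1, an immediate early transcription factor, was at 863, 52.8, 67.7 and 478 CPM in CD4 gate cells against 78.5, 37.9, 61.3 and 55.2 CPM in CD8 gate cells (log2 2.18, SE 0.32, adjusted p = 2.69e-05). Its CD4 values varied widely within both genotypes. Cd69, an activation and tissue retention marker, was called lower at 415, 245, 135 and 358 CPM in CD4 gate cells against 618, 453, 476 and 477 CPM in CD8 gate cells, and Myc was called lower too (log2 -1.50). Of 21 NF-kB genes tested, 6 were called higher and none lower, with a median of 0.34.

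Of 16 survival and apoptosis genes, 2 were called higher and 2 lower, and 0 and 2 without the other-lineage barcodes. Of all genes tested, 5.32% were called higher and 4.53% lower with all barcodes, and 3.22% and 3.59% without the other-lineage ones. Bcl2, which protects resting lymphocytes from apoptosis, was at 332, 288, 290 and 313 CPM in CD4 gate cells against 658, 595, 660 and 629 CPM in CD8 gate cells (log2 -1.26, SE 0.13, edgeR adjusted p = 1.35e-07). The CD4 values of all 4 libraries lay close together. They lay below every CD8 value, as held for 234 of 5977 genes tested. Of 24 interferon stimulated genes, 6 were called higher and 1 lower, among them Ifi27l2a (log2 1.64), while Bst2 was called only with the other-lineage barcodes (log2 1.59, and 0.17 with adjusted p = 0.827 without them). Of 8 NK cell and NKT genes tested, 5 were called lower and Klrb1c higher (log2 1.29), and Gzma, which encodes granzyme A, was at 0, 95.9, 0 and 93.9 CPM in CD4 gate cells against 198, 87.1, 32.9 and 554 CPM in CD8 gate cells. Of the 15 Hippo pathway and YAP target genes tested between the gates, none was called.

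**Figure D4:**
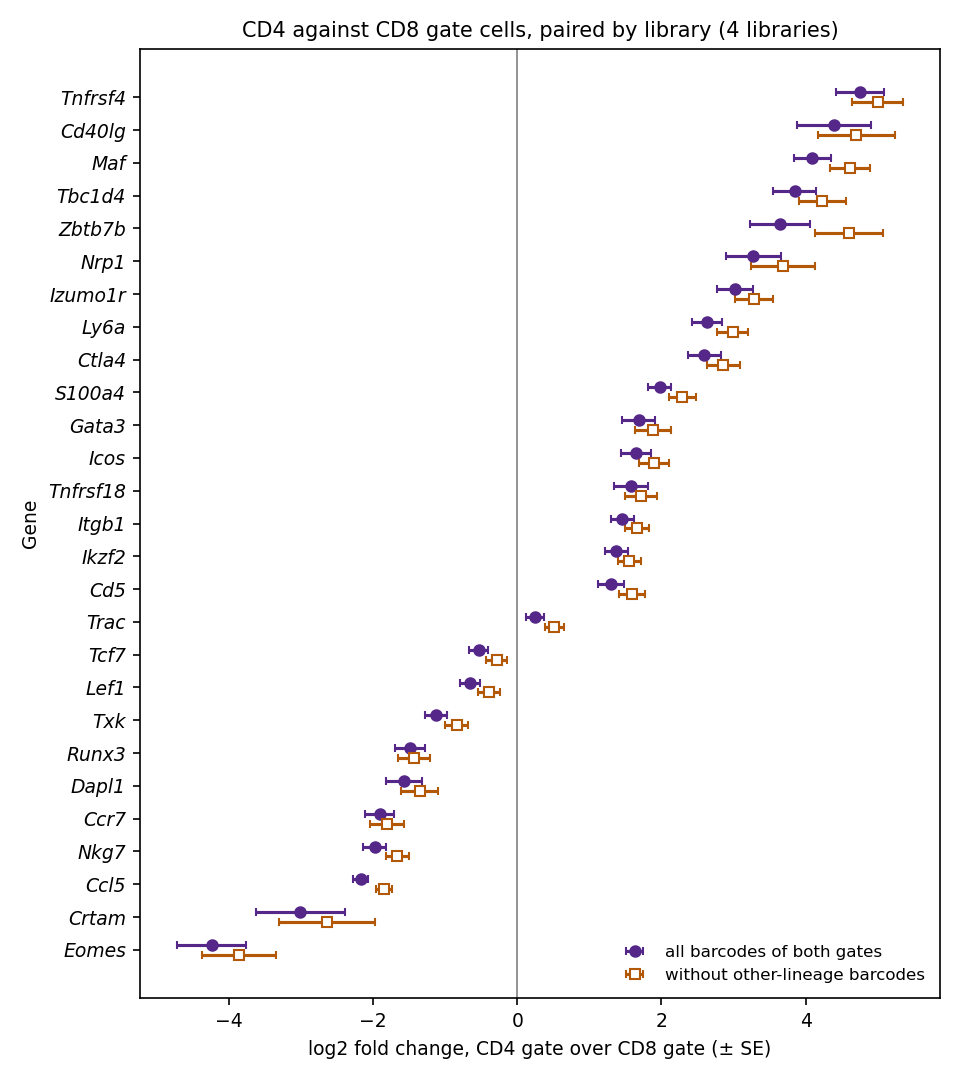
Log2 fold change of CD4 gate over CD8 gate cells with its standard error (x axis) for 27 genes (y axis), with all barcodes (filled circles) and without the other-lineage barcodes (open squares). Tnfrsf4, Cd40lg and Maf lie above 4, Eomes lies near -4, and the sign of each gene is the same in both fits.

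Promoter sequence is shown for 4 of these genes, called higher (Zbtb7b, Izumo1r) or lower (Nkg7, Gzmm) and with 1 RUNX core each, because RUNX factors are known regulators of the CD4 and CD8 choice. The 250 bases before a RefSeq gene start (GRCm38.p6) were searched for the RUNX core TGTGGT or its reverse complement ACCACA, which is in capitals below, 5′ to 3′ on the strand of the gene. The windows are chr3:89387672-89387921 (minus strand) for Zbtb7b, chr9:14903768-14904017 (minus strand) for Izumo1r, chr7:43436888-43437137 (plus strand) for Nkg7 and chr10:79688770-79689019 (plus strand) for Gzmm. Zbtb7b and Gzmm have other annotated starts, whose windows lack the core. Windows of other genes were searched too and are not shown. The core was absent from those of Tnfrsf4, Foxp3, Ctla4, Eomes, Gzmk, Tnfrsf18, Il2ra, Tbc1d4, Nrp1, Dapl1, Tnfaip3 and Cd8a. By the GENCODE gene positions, the Zbtb7b window lies inside the gene, and those of Izumo1r and Nkg7 reach into theirs.
Zbtb7b: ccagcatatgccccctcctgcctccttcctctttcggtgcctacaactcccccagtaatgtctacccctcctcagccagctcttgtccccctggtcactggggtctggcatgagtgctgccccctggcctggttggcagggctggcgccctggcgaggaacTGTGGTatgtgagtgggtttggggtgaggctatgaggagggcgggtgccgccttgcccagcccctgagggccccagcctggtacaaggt
Izumo1r: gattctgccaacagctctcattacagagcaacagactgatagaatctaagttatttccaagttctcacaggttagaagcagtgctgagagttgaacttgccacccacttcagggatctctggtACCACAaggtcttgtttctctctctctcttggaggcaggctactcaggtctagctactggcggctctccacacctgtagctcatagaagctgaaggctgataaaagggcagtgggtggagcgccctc
Nkg7: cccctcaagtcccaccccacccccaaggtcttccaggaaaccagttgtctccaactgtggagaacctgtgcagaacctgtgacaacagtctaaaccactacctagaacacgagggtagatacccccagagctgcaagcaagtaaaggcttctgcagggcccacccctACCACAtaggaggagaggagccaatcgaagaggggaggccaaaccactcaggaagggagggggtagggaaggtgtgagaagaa
Gzmm: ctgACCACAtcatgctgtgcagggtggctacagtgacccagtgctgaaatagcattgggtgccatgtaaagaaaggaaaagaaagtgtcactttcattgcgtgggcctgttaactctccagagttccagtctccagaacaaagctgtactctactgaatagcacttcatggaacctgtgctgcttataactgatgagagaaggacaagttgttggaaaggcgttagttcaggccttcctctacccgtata
The core is present in genes on both sides of the comparison. It was found in 14.0% of 32851 promoter windows. Counted by gene, at least 1 window held it in 15.9% of 27025 genes with a window and in 12.9% of the 4877 tested. The shares were 15.2% of 243 genes called higher and 17.7% of 203 called lower. A match is a description of these letters and not of binding.

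Between genotypes, the summed counts of all CD4 gate cells differed in 4 of 3150 genes tested (0.127%), all lower in YAP1 heterozygote cells. At an unadjusted p under 0.05 there were 155 genes (4.92%). The count and its direction depended on each library. Without YAP1 heterozygote library 1 there were 2 genes called higher and 21 lower, and without YAP1 heterozygote library 2 there were 13 and 15. Without WT library 1 there were 10 called higher and 14 lower, and without WT library 2 there were 8 and 16. The 4 genes all belong to MHC class II presentation, and most of their molecules came from the other-lineage barcodes. H2-Eb1 (chr17:34305867-34316674, plus strand), a class II beta chain, had 13 and 8 UMIs in YAP1 heterozygote libraries and 103 and 151 in WT libraries, of which 1 barcode a library held 12 and 4 in YAP1 heterozygote libraries and 103 and 143 in WT libraries. H2-Eb1 was called at log2 -3.75 (SE 0.40, edgeR adjusted p = 0.00516). Cd74 had 92 and 54 UMIs in YAP1 heterozygote libraries and 273 and 410 in WT libraries, with 78 and 36 in YAP1 heterozygote libraries and 271 and 334 in WT libraries from 1 barcode each (log2 -2.36, SE 0.36, adjusted p = 0.0348).

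The other two were the class II chains H2-Aa (log2 -3.42, adjusted p = 0.0163) and H2-Ab1 (log2 -2.27, adjusted p = 0.0326). With the barcodes that Scrublet marked as doublets left out, 6 genes were called: the class II genes were lower by more (Cd74 -4.56, H2-Ab1 -5.35, H2-Eb1 -5.67 and H2-Aa -5.68 on the log2 scale), Cd209a, a lectin gene of dendritic cells, was lower (-7.28, edgeR adjusted p = 0.0322), and Stmn1, a microtubule regulator of dividing cells, was higher (2.56, adjusted p = 0.0123). Without the 14 other-lineage barcodes, 0 of 2303 genes were called by edgeR and 0 by DESeq2, with 93 genes at an unadjusted p under 0.05 in edgeR. A high Cd74 count is 1 of the 3 limits that chose these barcodes, so the loss of the class II calls follows in part from that choice and is given as a description. The B lineage list, which holds Cd74, summed to 1003 and 753 CPM in YAP1 heterozygote libraries and 3094 and 2222 CPM in WT libraries with all barcodes, and to 513 and 484 CPM in YAP1 heterozygote libraries and 367 and 343 CPM in WT libraries without those barcodes. In CD4 gate cells the B cell transcription factor gene Pax5 was at 0 UMIs.

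**Figure D5:**
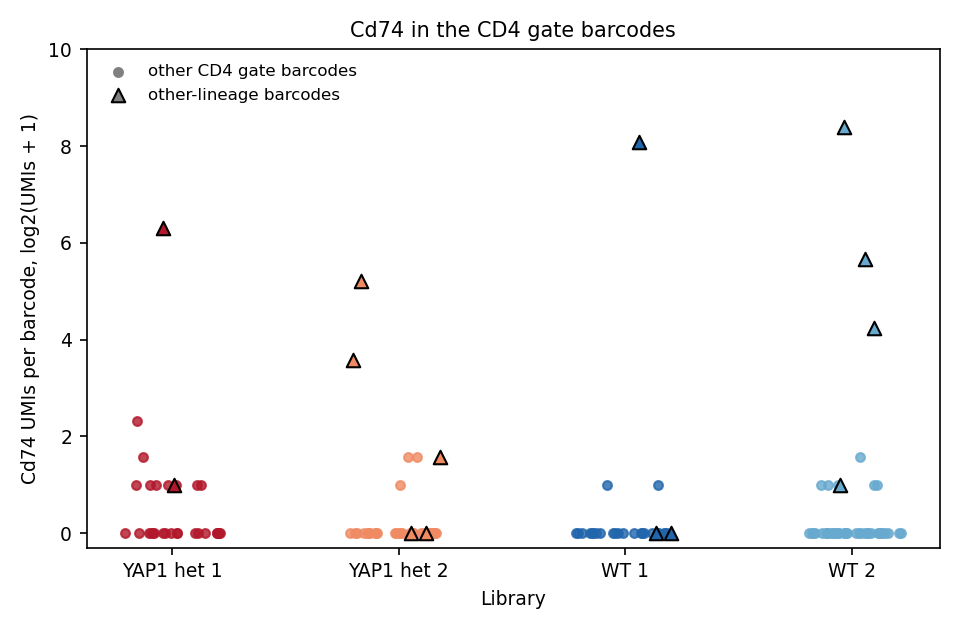
Cd74 UMIs of each of the 137 CD4 gate barcodes on a log2(UMIs + 1) scale (y axis), by library (x axis). Triangles mark the 14 other-lineage barcodes. In each WT library 1 triangle holds most of the molecules (271 of 273 and 334 of 410), and the largest triangles of the YAP1 heterozygote libraries hold 78 and 36. The 123 barcodes that are not triangles hold at most 4 UMIs each.

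Beyond class II, the genes nearest to a call were Vps37b and Dapl1. Vps37b (chr5:124004641-124032270, minus strand), a subunit of the endosomal sorting complex ESCRT-I, was at 160 and 149 CPM in YAP1 heterozygote libraries and 716 and 411 CPM in WT libraries. The groups did not overlap, as held for 598 lower genes of 3150 tested (19.0%). The log2 fold change of -1.78 (SE 0.34) was not called (edgeR adjusted p = 0.183, and -2.20 with 0.111 without the other-lineage barcodes). In CD8 gate cells of the same libraries it was at 197 and 238 CPM in YAP1 heterozygote libraries and 728 and 484 CPM in WT libraries, and was called lower there (log2 -1.48, SE 0.20, adjusted p = 0.0399), with 3 class II genes, among 7899 genes tested (0.0506% called). The interaction of genotype and gate for Vps37b was -0.30 (SE 0.29, adjusted p = 1). Within CD4 states it was at 264 and 145 CPM in naive state cells of YAP1 heterozygote libraries and 891 and 809 CPM in those of WT libraries, and at 46.1 and 133 CPM in effector state cells of YAP1 heterozygote libraries and 909 and 498 CPM in those of WT libraries. In both states both YAP1 heterozygote values lay below both WT values, from 1 to 45 UMIs a sum. These states are parts of the barcodes in which Vps37b was picked for its small p, so they are no independent support.

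Dapl1 (chr2:59484653-59505020, plus strand), a gene of resting naive T cells, was at 173 and 106 CPM in YAP1 heterozygote libraries and 29.0 and 26.8 CPM in WT libraries (log2 2.32, SE 0.46, edgeR adjusted p = 0.226). It was not called, and its log2 difference between genotypes in CD8 gate cells was 0.32. Its UMIs in naive state cells were 27 and 16 in YAP1 heterozygote libraries and 3 and 4 in WT libraries. The ubiquitin-editing NF-kB inhibitor Tnfaip3 was at 409 and 264 CPM in YAP1 heterozygote libraries and 1180 and 680 CPM in WT libraries (log2 -1.40, SE 0.34, adjusted p = 0.520). The cytokine signalling inhibitor Socs3 had a log2 fold change of -2.52 and the translation factor Pa2g4 one of 1.65, and neither was called.

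No regulatory program gene was called between genotypes, and the summed level of the list overlapped between them. All 20 genes together were at 1751 and 1046 CPM in YAP1 heterozygote libraries and 2920 and 1743 CPM in WT libraries, and without the other-lineage barcodes at 2240 and 1238 CPM in YAP1 heterozygote libraries and 3114 and 1868 CPM in WT libraries. Gene by gene, all 9 tested regulatory program genes, of 20 listed and Foxp3 among them, had negative fold changes with a median of -0.46, against 0.03 over all genes, and in 5 of them both YAP1 heterozygote libraries lay below both WT libraries, where 19.0% of all genes tested did. Ikzf2 was at 320 and 302 CPM in YAP1 heterozygote libraries and 696 and 487 CPM in WT libraries (log2 -0.85, edgeR adjusted p = 0.845). Without the other-lineage barcodes, 8 of 9 were negative with a median of -0.28, and 3 of 9 did not overlap (17.6% of all genes tested). The regulatory state cells that carry these genes held 6 of 67 barcodes in YAP1 heterozygote libraries and 18 of 70 in WT libraries.

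Of 17 naive genes tested, 6 had positive and 11 negative fold changes (median -0.10), and of 22 effector genes 14 had positive and 8 negative (median 0.12). Both splits turned around without the other-lineage barcodes. Of 16 naive genes 10 were then positive and 6 negative (median 0.02), and of 21 effector genes 8 and 13 (median -0.03). Cytokine receptor and STAT pathway genes were negative in 17 of 23, with 10 of 23 below both WT values, where 19.0% of all genes tested were, and a median of -0.51. With those barcodes left out 14 of 19 were negative with a median of -0.19, and 5 of 19 lay below both WT values, where 17.6% of all genes tested did. Ifnar1, a chain of the type I interferon receptor, was at 57.5 and 62.4 CPM in YAP1 heterozygote libraries and 213 and 116 CPM in WT libraries (log2 -1.30, edgeR adjusted p = 0.746). Immediate early genes were negative in 17 of 22 (median -0.35), and NF-kB genes in 11 of 14 (median -0.44). Without the other-lineage barcodes these were 11 of 19 (median -0.15) and 8 of 10 (median -0.30). No gene of these lists was called in this test. With the replicate number as a block the immediate early gene Atf3 was called lower (log2 -2.07, edgeR adjusted p = 0.0270, against -2.00 and 0.746 without the block). Of 12 neutrophil genes, all detected, 7 were tested, and in the 7 both YAP1 heterozygote values lay below both WT values (median -0.41), where 19.0% of all genes tested did. Leaving out the other-lineage barcodes, this held for 5 of 7, where 17.6% of all genes tested did. The neutrophil list summed to 3215 and 2888 CPM in YAP1 heterozygote libraries and 4535 and 3514 CPM in WT libraries. The part of neutrophil RNA in the other lists was not tested.

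Yap1 and its paralog Wwtr1 had 0 UMIs in the CD4 gate of every library, which allows at most 4.34 CPM over the summed gate, so the heterozygous gene could not be followed in these cells. Myh9 was at 588 and 384 CPM in YAP1 heterozygote libraries and 503 and 456 CPM in WT libraries (log2 0.07, SE 0.30). Of 10 Hippo pathway and YAP target genes tested, 6 had positive and 4 negative fold changes, with a median of 0.15, and 25 actomyosin genes had a median of -0.05. No gene of either list was called. The interaction of genotype and gate, which asks whether CD4 and CD8 gate cells differ in their genotype difference, called 0 of 7216 genes in edgeR and 0 in DESeq2, with 268 (3.71%) at an unadjusted p under 0.05. Without the other-lineage barcodes 1 of 6739 (0.0148%) was called, the linker histone gene H1f5 (log2 -3.44, SE 0.68, adjusted p = 0.0310).

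T cell receptor variable segments were too sparse to describe a repertoire. Of 35 Trbv segments, 10 were detected, with 1 and 4 UMIs in YAP1 heterozygote libraries and 2 and 8 in WT libraries. Of 130 Trav segments, 15 were detected, with 3 and 14 UMIs in YAP1 heterozygote libraries and 1 and 13 in WT libraries. No segment was found in all 4 libraries.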

How the data were processed

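The authors deposited raw UMI counts for each library, with genes in rows and barcodes in columns. Per the submitters' processing notes the tools were Cell Ranger 3.0.0 and Seurat 4.3.0 with builds GRCm38 and mm10, while the matrix headers name Cell Ranger 5.0.0, and this conflict was not resolved. The deposited counts are not normalized. The members and gene lists were chosen with earlier results of these data known, so no count over a list is independent support.

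From the counts, barcodes were kept with at least 200 genes and at most 10% mitochondrial UMIs, and gates, states and thinning to 1500 UMIs were computed per barcode. The set of naive genes holds 1 gene that is not reported here. Doublets were marked with Scrublet in scanpy 1.11.5 at an expected 0.8% per 1000 barcodes and left in unless stated. UMIs were summed by library and gate or state. Sums were tested with edgeR 4.0.16 (quasi-likelihood, filterByExpr, TMM scaling, threshold 0.05 on Benjamini-Hochberg adjusted p), with the library as a block in paired comparisons, and with DESeq2 1.42.0 as an alternative. Shares were compared with an exact permutation test. Alternatives changed the tool, scaling, filter, gate limits, doublets and depth, and left out each library in turn. CPM are UMIs in 1000000 of the sum. Gene positions are from GENCODE M21 (GRCm38) and promoter windows from RefSeq (GRCm38.p6).

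Genes were named by rule: per comparison and direction up to 12 called genes with the largest fold change, average log2 CPM no lower than 4 and libraries that did not overlap (in paired comparisons, that agreed in direction), without gene models, receptor segments, sex chromosome and gate genes, or up to 8 not called genes with the smallest p between genotypes, and from each list the called and the 3 most highly expressed genes. Genes of the naive, regulatory, effector and CD4 lineage lists could also be given as levels. Outside the rule, chosen after values were seen, are Bcl6, Il4, Il17a, Il1rl1, Pax5, Ifnar1, Hif1a, H1f5, Vps37b in states, and genes called without the other-lineage barcodes.

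On simulated counts with known changes, the genotype test recovered 12% of 2-fold and 66% of 4-fold changes over 3150 genes. The regulatory test recovered 46% and 92% over 984 genes, and the CD4 against CD8 test 56% and 93% over 5977 genes. The interaction test recovered 5% and 38% over 7216 genes. Replicate 1 of both genotypes expressed Ddx3y and replicate 2 Xist. The comparison of effector with naive state cells was not made, since WT library 1 held 4 naive state cells and each sum needed at least 10. That minimum was set for this comparison alone. The tested regulatory sums held 3 and 3 cells in YAP1 heterozygote libraries and 10 and 8 in WT libraries.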

Additional observations from a re-analysis of the deposited data

How the results depend on the processing

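Few cells limit the CD4 gate: 27 to 43 barcodes a library, 3 regulatory state cells in each YAP1 heterozygote library, and no exact p below 0.3333. The difference in the CD4 gate share, -0.0163 percentage points, ran from -0.0951 to 0.0624 when each library was left out, and was 0.0624 without WT replicate 2. The regulatory difference kept its sign in every alternative and ran from -28.0 to -9.55 percentage points without each library. The naive difference of 19.4 was 8.85 with thinned cells and ran from 11.7 to 27.1 without each library. The effector difference of -1.20 reversed to 3.27 with thinned cells, 7.40 with state limits of 1 and 0 UMIs and 6.67 without YAP1 heterozygote replicate 1 (lowest value -9.09 without YAP1 heterozygote replicate 2).

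Between genotypes 4 genes were called, 16 with no filter (3 higher, 13 lower) and 6 without Scrublet barcodes (1 higher, 5 lower). It was 23 to 28 with 1 library left out (23 without YAP1 heterozygote replicate 1, 28 without replicate 2, 24 without either WT library), where the lone library of a genotype is assumed to vary like the others. It was 0 without the top cell of each gene, in naive state cells alone, without regulatory state cells and without the other-lineage barcodes (edgeR, DESeq2 and with the replicate block). Without the other-lineage barcodes DESeq2 gave positive log2 fold changes for H2-Eb1 (1.53), H2-Aa (0.29) and Cd74 (1.09). Cd74 was 1.83 in naive state cells alone and 2.22, with H2-Ab1 at 4.01, without regulatory state cells. The replicate block called 5, Atf3 the fifth. Same-numbered libraries deviated together with a correlation of 0.185. Number 1 went with Ddx3y and number 2 with Xist in both genotypes, so a block on the number is also a block on sex. No label ties the numbers to a shared batch or litter, and there are only 2 pairs. The main test therefore did not use the numbers as pairs and left the difference of sex in its spread. The block was an alternative only.

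Between regulatory and other cells 9 genes were called, 45 with no filter, 26 without Scrublet barcodes, 16 without other-lineage barcodes and 1 to 14 without each library (1 without YAP1 heterozygote replicate 2). Between CD4 and CD8 gate cells 589 were called, 370 with DESeq2, 381 without other-lineage barcodes and 463 to 511 without each library, and Fcer1g (-0.46) and Runx2 (-0.30) reversed without the other-lineage barcodes. The interaction called 0 genes, 2 with no filter, 1 without other-lineage barcodes and 3 to 13 without each library. The cause of these changes was not tested. The effector against naive comparison and its alternatives were not run.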
